A study of Rattus norvegicus with 15 samples.

Results

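Fragments of transfer RNA (tsRNAs) in the left ventricle of rats on caloric restriction before isoproterenol were compared with those of untreated rats. The comparison was set by the sample titles, and it takes in all 714 tsRNAs listed. It uses 10 of the 15 libraries of the series, 5 rats in each group and 1 library per rat. All rats were Sprague-Dawley. The control group was untreated, and the restricted group was pretreated by caloric restriction and then given isoproterenol, a beta-adrenergic agonist used to bring on myocardial ischemia. A further group of 5 rats received isoproterenol with no restriction named in the labels. It is set beside the restricted group, and its libraries also enter the model behind the tests of single tsRNAs. The labels give no dose, time, age or sex, and no group was restricted without the drug. The comparison therefore takes restriction and isoproterenol together, and their parts cannot be told apart. Of the 714 tsRNAs, 665 were named as tRNA-derived fragments (tRF) and 49 as tiRNAs, over 20 amino acids and 46 isoacceptors (an amino acid with its anticodon).

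Transfer RNAs carry amino acids to the ribosome, and cells also cut them into defined shorter RNAs. tiRNAs arise from a cut in the anticodon loop, which the nuclease angiogenin makes in stressed mammalian cells, and the shorter tRFs arise from cuts elsewhere. Some of these fragments have been linked to the control of translation and to gene silencing. The heart is rich in mitochondria, which translate their own messages with a separate set of tRNAs encoded in the mitochondrial genome. That set has 1 tRNA for most amino acids and a pair each for leucine and serine.

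A name gives the class, the parent isoacceptor and a serial number. Sequences and positions within the tRNA were not used here, so tsRNAs of 1 isoacceptor that are nearly alike in sequence are uncertain as single species. The values deposited are CPM (reads per 1000000 of a library's total), with no correction for fragment length. The library totals were 269508 to 1128887 reads in control and 163818 to 397574 reads in restricted libraries, so 1 read was worth 0.886 to 6.10 CPM. The table lists tsRNAs alone, none of which marks a cell type, so the tissue label could not be checked against markers. In bulk tissue, fewer cells of a type and less RNA per cell cannot be told apart.

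Control replicate 4 stood apart from the other controls. Its total of 1128887 reads compares with 269508 to 424219 in the other 4, and its median-of-ratios factor, a measure of the level of its typical tsRNA, was 0.174 against 0.496 to 0.802 in the others. The restricted libraries had factors from 1.04 to 2.35, above every control. Within both groups deeper libraries mostly had lower factors. Restricted replicate 1, with 163818 reads, had the highest at 2.35, and restricted replicate 2, with 397574 reads, had the lowest of its group at 1.04. Results are therefore given without control replicate 4 where that changes them, and with 2 scalings where these differ. Ratios of pooled reads and their bounds were not recomputed without that library.

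By deposited CPM, most tsRNAs that changed were higher in the restricted group, a balance that turned with median-of-ratios scaling. By limma on log2(CPM + 1), 413 of the 707 tsRNAs tested changed at an adjusted p under 0.05 (58.4%). Of these, 337 rose (47.7% of those tested) and 76 fell (10.7%). The other 7 tsRNAs had too few libraries with at least 1 CPM to be tested. The median log2 fold change of all tested tsRNAs was 1.60, so a change of that size is what a typical tsRNA showed on this scale. With the log2 library total as a covariate in limma the median was 1.05. The part of library depth in the typical rise was not tested. In 285 tsRNAs (40.3%) the groups did not overlap at all, with the restricted libraries higher in 220 (31.1%) and lower in 65 (9.19%).

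The balance of rises and falls depended on the scaling. With median-of-ratios scaling, which takes the typical tsRNA as unchanged, the median was 0.24, and 107 of 708 tsRNAs rose (15.1%) while 146 fell (20.6%). Rises made up 81.6% of the calls by deposited CPM and 42.3% with that scaling. When every library's listed tsRNAs were set to 1 common sum, 187 rose and 101 fell, 64.9% of them higher, at a median of 0.98. In all, 183 tsRNAs were called in the same direction by deposited CPM and by median-of-ratios scaling, 107 higher and 76 lower, and 0 in opposite directions. Without control replicate 4, 282 rose and 69 fell by deposited CPM. With only the 10 libraries compared in the model, 357 of 681 tsRNAs rose and 89 fell. edgeR on the recovered reads with the authors' totals called 261 of the 347 tsRNAs left by its own filter (75.2%), 212 higher (61.1%) and 49 lower (14.1%).

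**Figure D1:**
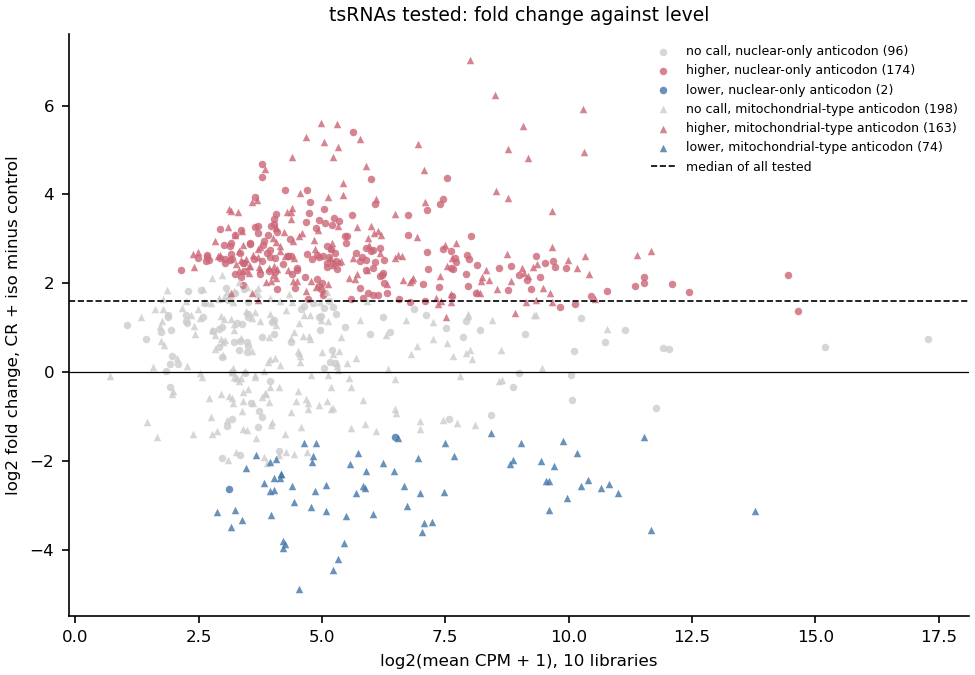
The log2 fold change of each of the 707 tested tsRNAs (restricted plus isoproterenol minus control, vertical axis) against its level over the 10 libraries (log2 of mean CPM + 1, horizontal axis). Colour gives the call, the marker gives the parent (circle, nuclear-only anticodon; triangle, mitochondrial-type anticodon), and the dashed line is the median of 1.60. Among the 76 falls, 74 are triangles.

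The tsRNAs with the largest rises were fragments of histidine, aspartate, arginine, asparagine, glutamine and glycine tRNAs that were rare in untreated ventricles. The largest was that of tRF-His-GTG-043. It stood at 0, 2.36, 11.1, 0 and 7.86 CPM in control replicates 1 to 5 and at 476, 189, 941, 228 and 679 CPM in restricted replicates 1 to 5. Every restricted library was above every control, and 2 controls held no read of it. The means were 4.27 ± 5.003 and 503 ± 316 CPM (SD, n = 5 each), giving a log2 fold change of 7.02 (limma, SE 0.67, adjusted p = 2.35e-11), which is 5.42 above the median of all tsRNAs. With median-of-ratios scaling it was 6.03.

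The histidine fragment tRF-His-GTG-042 behaved alike. Its control values were 10.98, 2.36, 29.7, 1.77 and 7.86 CPM, and its restricted values were 689.8, 287, 1274, 289.5 and 1016 CPM. The groups were far apart, with a log2 fold change of 6.24 (limma, SE 0.64, adjusted p = 1.75e-10; 4.78 with median-of-ratios scaling). tRF-His-GTG-041 was all but missing from controls, with 1 read against 70 in the restricted group, a ratio of 135 (95% counting interval 23.5 to 5418).

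Among fragments of other parents, tRF-Asp-GTC-039 reached the highest level of the 10 largest rises. Controls were at 40.3, 40.1, 77.9, 3.54 and 47.2 CPM and restricted libraries at 1819, 1024, 6255, 832 and 2446 CPM. The groups did not overlap, and the log2 fold change was 5.92 (limma, SE 0.67, adjusted p = 2.04e-09; 4.36 with median-of-ratios scaling). Restricted replicate 3 was the highest for this fragment, at 6255 CPM, and for tRF-Asp-GTC-038, at 2166 CPM. tRF-Asp-GTC-038 rose from 21.1 ± 11.7 to 1048 ± 799 CPM (5.55).

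Of the 17 tested arginine fragments with the anticodon TCG, 8 rose, 2 fell and 7 were not called (4 higher and 4 lower with median-of-ratios scaling). Of these, tRF-Arg-TCG-031 was among the 10 largest rises. tRF-Arg-TCG-027 was at 62.2, 51.9, 111, 26.6 and 136 CPM in controls and at 2912, 946, 2896, 1162 and 4308 CPM in the restricted group. No library of 1 group reached the other, at a log2 fold change of 4.95 (limma, SE 0.58, adjusted p = 3.57e-09; 3.34 with median-of-ratios scaling). tRF-Arg-TCG-028 went from 21.9 ± 8.12 to 844 ± 464 CPM (5.03) and tRF-Arg-TCG-031 from 2.39 ± 3.19 to 105 ± 65.4 CPM (5.24).

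The other tsRNAs with the largest rises were all rare in control libraries. tRF-Gly-GCC-041 went from 1.75 ± 3.44 to 95.5 ± 57.5 CPM (5.41), and the control mean rests mostly on replicate 5, at 7.86 CPM. tRF-Gly-TCC-049 had 1 read in controls and 90 in the restricted group, a ratio of 174 (95% counting interval 30.4 to 6944). For tRF-Gln-TTG-034 the reads were 1 and 71, a ratio of 137 (23.8 to 5494). tRF-Asn-GTT-022 had 0 control reads and a mean of 49.01 ± 33.7 CPM in the restricted group, at least 34.1-fold higher with 3 reads in the whole group as the floor. This floor uses the pooled control total, to which control replicate 4 gave the most reads, and the bound would be lower without that library. The 10 largest rises kept their call and direction with median-of-ratios scaling, at 4.04 to 6.03.

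**Figure D2:**
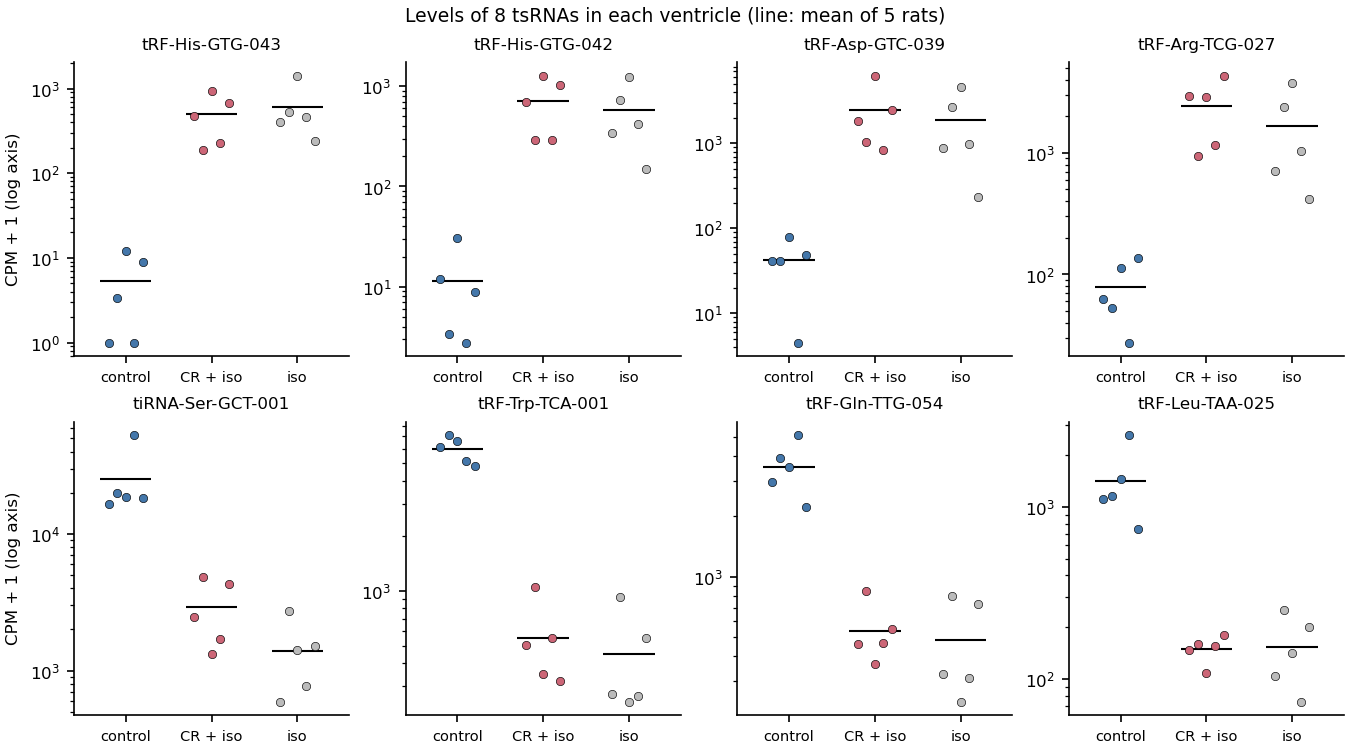
CPM + 1 (vertical log axis) of 8 tsRNAs in each ventricle of the control, restricted plus isoproterenol (CR + iso) and isoproterenol (iso) groups, with 5 rats a group. Points are rats and the line is the group mean. The upper 4 tsRNAs are higher and the lower 4 are lower in every CR + iso library than in every control, and the iso libraries are drawn for reference.

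The falls were led by fragments that were abundant in untreated ventricles. tiRNA-Ser-GCT-001, cut in the anticodon loop of a serine tRNA, was the most abundant of them. Controls were at 16439.8, 19983, 18645, 53100.1 and 18217 CPM, and restricted libraries at 2478, 4832, 1319.5, 1701 and 4317 CPM. All 5 restricted libraries were lower than the lowest control, and control replicate 4 was far above the other controls. The means were 25277 ± 15605 and 2929.6 ± 1569 CPM, a log2 fold change of -3.13 (limma, SE 0.51, adjusted p = 4.1e-06).

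Tryptophan fragments with the anticodon TCA fell next. TCA is the anticodon of the mitochondrial tryptophan tRNA, which also reads the codon UGA that is a stop in the cytosol. tRF-Trp-TCA-001 was at 6095, 7138, 6582, 5125 and 4791 CPM in controls and 501, 1049, 347, 546 and 319 CPM in restricted libraries. The groups were far apart, at 5946 ± 982 and 552 ± 294 CPM (log2 fold change -3.55, limma SE 0.50, adjusted p = 3.06e-07). tRF-Trp-TCA-002 fell from 2076 ± 324 to 373 ± 180.3 CPM (-2.57). tRF-Trp-TCA-003 fell from 4333 ± 1619 to 1544 ± 648 CPM (-1.47, limma adjusted p = 0.0148), with groups that overlapped, since control replicate 4 was at 1814 CPM and restricted replicate 2 at 2573 CPM.

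Glutamine, leucine and proline fragments were among the abundant falls as well. tRF-Gln-TTG-054 was at 2958, 3897, 3536, 5116 and 2225 CPM in controls and 458, 848, 365, 467 and 544 CPM in the restricted group. Even the highest restricted library lay under the lowest control, and the log2 fold change was -2.73 (limma, SE 0.50, adjusted p = 2.74e-05). tRF-Gln-TTG-055 fell from 2780.2 ± 624 to 449 ± 87.8 CPM (-2.62). For tRF-Leu-TAA-025 the control values were 1102, 1150.3, 1439.7, 2612 and 742 CPM and the restricted values 146, 158, 108, 156 and 179.9 CPM. These groups were also apart, at a log2 fold change of -3.12 (limma, SE 0.53, adjusted p = 6.97e-06). tRF-Pro-TGG-016 fell from 2245 ± 578 to 433 ± 171 CPM (-2.44) and tRF-Pro-TGG-017 from 1782 ± 407 to 519.6 ± 195 CPM (-1.83). Serine fragments tRF-Ser-GCT-035 (-2.52) and tRF-Ser-GCT-034 (-2.84) fell from control means of 2996 and 1745 CPM.

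By fold change the steepest falls were mostly in rarer fragments, of Ser-GCT, Leu-TAA, Thr-TGT, His-GTG and Ile-GAT, beside the abundant tRF-Trp-TCA-001. tRF-Ser-GCT-049 was at 43.9, 47.1, 33.4, 45.2 and 47.2 CPM in controls, with a read in only 1 restricted library, and the pooled reads of 110 against 1 made it 56.9-fold lower (95% counting interval 10.01 to 2269). tRF-Leu-TAA-019 fell from 69.1 ± 16.1 to 3.75 ± 4.17 CPM (-4.46), with 2 restricted libraries at 0. tRF-Thr-TGT-044 (-4.21), tRF-His-GTG-031 (-3.84) and tRF-Ser-GCT-051 (-3.88) fell from means of 74.1, 76.05 and 33.1 CPM to means under 10 CPM. tRF-Ile-GAT-003, of the mitochondrial isoleucine anticodon, was at 238, 309, 267, 270.2 and 113 CPM in controls and 24.4, 20.1, 13.5, 14.5 and 17.99 CPM in the restricted group. It was lower in every restricted library, at a log2 fold change of -3.61 (limma adjusted p = 0.000226). The other 3 of the 10 largest falls were tRF-Leu-TAA-026 (73 against 3 reads, 12.6-fold lower, 4.14 to 62.5), tRF-Leu-TAA-003 (-3.80) and tRF-Ser-GCT-048 (38 against 1 read, 19.7-fold lower, 3.32 to 797).

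The falls lay almost wholly among parents that share their anticodon with a mitochondrial tRNA. Of the 46 isoacceptors listed, 22 have an amino acid and anticodon of the mitochondrial set, called mitochondrial-type here, and 24 do not and are called nuclear-only. Of the 76 falls, 74 were mitochondrial-type (97.4%), against 61.5% of all tested tsRNAs and 48.4% of the 337 rises. Put the other way, 17.0% of the 435 mitochondrial-type tsRNAs tested fell and 37.5% rose. Of the 272 nuclear-only tsRNAs, 0.735% fell and 64.0% rose. The 2 nuclear-only falls, named because they are the exceptions, were tRF-Lys-CTT-020 (129 ± 27.99 to 47.1 ± 17.5 CPM, -1.47) and the rare tRF-Gly-CCC-019 (12.98 ± 4.31 to 2.41 ± 3.47 CPM, -2.63). The falls were spread over 18 of the 22 mitochondrial-type isoacceptors. The median log2 fold change was 1.14 for mitochondrial-type and 2.12 for nuclear-only tsRNAs, and -0.30 and 0.65 with median-of-ratios scaling. With that scaling 131 mitochondrial-type and 15 nuclear-only tsRNAs fell, and 62 and 45 rose.

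The name alone does not show the genome of origin. In the RefSeq annotation of the rat assembly GRCr8, which was used only to count tRNA genes, the tables held 766 nuclear tRNA genes. Most mitochondrial-type parents also had nuclear genes of the same anticodon, from 2 for Leu-TAA to 38 for Cys-GCA. Trp-TCA and Ile-GAT had 0 annotated nuclear genes, apart from 1 gene with the anticodon TCA and no amino acid. Summed over all their members, these parents stood at 18526, 18424, 17606, 10834 and 13371 CPM in control and 3907, 5798, 2517, 3134 and 3135 CPM in restricted libraries. The restricted values were all lower, at 3698 ± 1273 against 15752 ± 3469 CPM. As a share of the listed reads they went from 5.63% ± 1.60 to 0.751% ± 0.221, again with no overlap. These sums were chosen after values were seen and were not tested.

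The summed level of all mitochondrial-type tsRNAs did not separate the groups. It was 89166 ± 10801 CPM in control and 84396 ± 18069 CPM in restricted libraries, and without tiRNA-Ser-GCT-001 the direction turned, at 63889 ± 8751 and 81467 ± 18658 CPM, with groups that still overlapped. Nuclear-only tsRNAs summed to 197011 ± 55514 and 419903 ± 153870 CPM. Mitochondrial-type tsRNAs held 28.6, 35.4, 33.5, 41.9 and 21.2% of the listed reads in controls and 26.7, 8.76, 19.3, 11.8 and 25.8% in the restricted group. These ranges overlapped, and without that tiRNA the mean shares were 22.8% ± 4.54 and 17.9% ± 7.92.

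Among the 40 isoacceptors with at least 5 tested members, 33 had more rises than falls, 6 had more falls than rises, and Gln-TTG had 7 of each. With median-of-ratios scaling 16 had more rises and 20 had more falls. By deposited CPM, some members rose while others fell in 20 of the 40, and the other 20 had rises alone. Beside each count that follows stand the values for all tested tsRNAs, 47.7% higher, 10.7% lower and a median of 1.60. No set test was run, and a share near these says nothing particular of a parent.

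**Figure D3:**
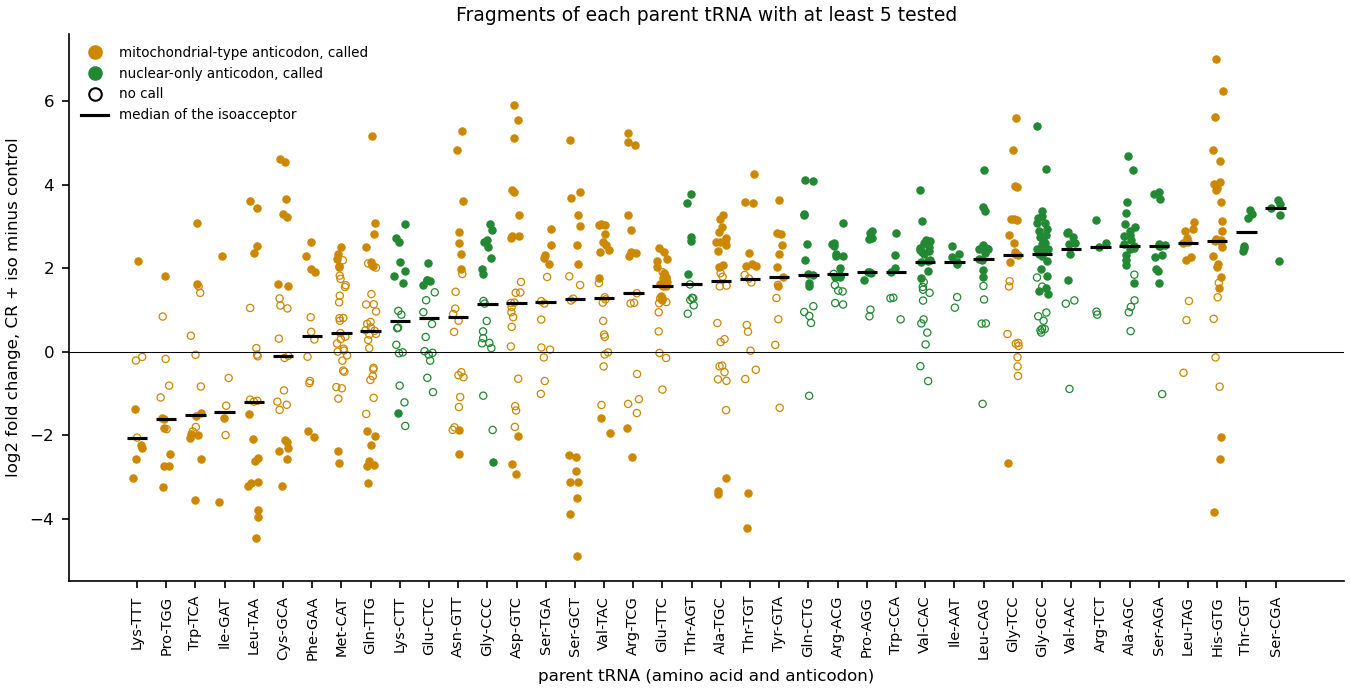
The log2 fold change (restricted plus isoproterenol minus control, vertical axis) of each tested tsRNA of the 40 isoacceptors with at least 5 tested, ordered by their median (bar). Filled points were called and open points were not, in orange for mitochondrial-type and green for nuclear-only anticodons. The 6 parents with more falls than rises (Lys-TTT, Pro-TGG, Trp-TCA, Ile-GAT, Leu-TAA and Ser-GCT) are all orange, and 5 of them stand at the left with medians under 0.

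Parents with mostly rises included histidine, alanine, glycine and serine tRNAs. His-GTG had 22 of 30 members higher and 3 lower, with a median of 2.64 (2.65 with its members at 0 control reads set to their lower bounds). With median-of-ratios scaling 14 rose and 4 fell. Gly-GCC had 26 of 35 higher and 0 lower (median 2.34), but 5 higher with that scaling, led by tRF-Gly-GCC-041 and tRF-Gly-GCC-005 (0 control reads and 25.5 ± 20.4 CPM). Ala-AGC had 18 of 23 higher and 0 lower (2.53; 7 higher with that scaling), led by tRF-Ala-AGC-053 (5.99 ± 3.92 to 119.7 ± 50.8 CPM, 4.35) and tRF-Ala-AGC-005 (0 control reads, at least 19.97-fold higher).

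Some parents rose in nearly every tested member. Ser-AGA had 12 of 13 higher (2.54; 3 with median-of-ratios scaling), with tRF-Ser-AGA-013 going from 25.6 ± 14.4 to 309 ± 89.8 CPM (3.78) and tRF-Ser-AGA-001 rising by 3.66. All 6 tested members of Thr-CGT rose (2.87; 3 with that scaling), led by tRF-Thr-CGT-019 (3.41) and tRF-Thr-CGT-018 (3.29). All 5 of Ser-CGA rose (3.43; 4 with that scaling), led by tRF-Ser-CGA-015 (3.53) and tRF-Ser-CGA-014 (24.4 ± 18.4 to 254 ± 125.6 CPM, 3.65).

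Leucine parents differed by anticodon. Leu-CAG had 12 of 17 higher and 0 lower (2.23; 4 with median-of-ratios scaling). Its tRF-Leu-CAG-014 rose from 18.8 ± 14.3 to 350.2 ± 133 CPM (4.36) and tRF-Leu-CAG-012 rose by 3.46. Leu-TAG had 8 of 11 higher and 0 lower (2.60; 3 and 1 with that scaling), led by tRF-Leu-TAG-003 (397 ± 189 to 2171 ± 691 CPM, 2.62) and tRF-Leu-TAG-014 (2.90). Leu-TAA had 4 of 21 higher and 10 lower, at a median of -1.19 (2 and 14 with that scaling), led by tRF-Leu-TAA-025 and tRF-Leu-TAA-019. Its summed level was 2009.7, 2067, 2527, 3876 and 1449 CPM in controls and 732, 415, 509, 626 and 679 CPM in restricted libraries, without overlap.

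The same held for serine, proline and lysine. Ser-GCT had 7 of 19 members higher and 8 lower, with a positive median of 1.27 (4 and 8 with median-of-ratios scaling). Its members with the smallest p were tiRNA-Ser-GCT-001 and tRF-Ser-GCT-057 (2 reads against 83, a ratio of 80.2, 95% counting interval 21.5 to 673). Pro-TGG had 1 of 13 higher and 7 lower (-1.60; 0 and 11 with that scaling), led by tRF-Pro-TGG-023 (79.8 ± 17.3 to 8.21 ± 4.64 CPM, -3.24) and tRF-Pro-TGG-016. Pro-AGG had 7 of 10 higher and 0 lower (1.90; 3 with median-of-ratios scaling), led by tRF-Pro-AGG-006 (2.70) and tRF-Pro-AGG-026 (2.72). Lys-TTT had 1 of 9 higher and 5 lower (-2.05; 0 and 7 with that scaling), led by tRF-Lys-TTT-017 (186 ± 40.6 to 24.5 ± 13.5 CPM, -3.01) and tRF-Lys-TTT-026 (-2.23). In Lys-CTT, 7 of 18 were higher and 1 lower (0.74; 2 and 5 with that scaling), led by tRF-Lys-CTT-010 (3.06) and tRF-Lys-CTT-011 (2.73).

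Trp-TCA had 2 of 16 members higher and 7 lower (-1.51; 1 and 10 with median-of-ratios scaling), and Trp-CCA, the cytosolic tryptophan anticodon, had 4 of 7 higher and 0 lower (1.91; 0 with that scaling). The latter was led by tRF-Trp-CCA-017 (2.85) and tRF-Trp-CCA-016 (2.33). Ile-GAT had 1 of 6 higher (tRF-Ile-GAT-004, 2.29) and 2 lower (-1.44; 0 and 5 with that scaling). Ile-AAT had 5 of 7 higher and 0 lower (2.15; 0 with that scaling), led by tRF-Ile-AAT-018 (2.34) and tRF-Ile-AAT-006 (2.52). Tyr-GTA, though mitochondrial-type, had 8 of 13 higher and 0 lower (1.80; 3 and 1 with that scaling). Its tRF-Tyr-GTA-019 rose from 156 ± 109 to 1462 ± 584 CPM (3.63) and tRF-Tyr-GTA-021 from 224 ± 139.9 to 1389 ± 596 CPM (2.82).

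The balance of calls turned from rises to falls once rescaled in many parents, among them Ala-TGC, Glu-TTC, Met-CAT and, above, Lys-CTT. It also turned in Asn-GTT, Asp-GTC, Cys-GCA, Glu-CTC, Gly-CCC, Phe-GAA, Ser-TGA, Val-AAC and Val-TAC. Some turned on few calls, such as Val-AAC with 0 higher and 1 lower at a rescaled median of 1.065. Over all tsRNAs tested with median-of-ratios scaling, 15.1% were higher and 20.6% lower, so such a turn is not particular to a parent. Ala-TGC had 12 of 28 higher and 3 lower (1.69; 5 and 8 with median-of-ratios scaling), with tRF-Ala-TGC-028 up from 964 ± 450.4 to 5550.0 ± 1493 CPM (2.73) and tRF-Ala-TGC-067 down from 241 ± 40.2 to 26.1 ± 19.02 CPM (-3.40). Val-CAC had 16 of 27 higher and 0 lower (2.15; 3 and 2 with that scaling), led by tRF-Val-CAC-023 (3.88) and tRF-Val-CAC-008 (2.49). Glu-TTC had 16 of 27 higher and 0 lower (1.58; 0 and 3 with that scaling), led by tRF-Glu-TTC-030 (2.22) and tRF-Glu-TTC-009 (2.48). Met-CAT had 5 of 31 higher and 2 lower (0.45; 0 and 4 with that scaling), led by tRF-Met-CAT-036 (2.33) and tRF-Met-CAT-035 (2.22).

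Glycine fragments of the parent Gly-GCC dominated both groups, and the most abundant of them did not pass the test. tRF-Gly-GCC-026 stood at 133938, 87672, 89945, 70941 and 156881 CPM in controls and 74937, 379970, 142934, 338987 and 112861 CPM in the restricted group. Restricted replicates 2 and 4 lay far above every control, and the other 3 lay within the control range. Its log2 fold change was 0.75 (limma, SE 0.50, adjusted p = 0.199) and -0.88 with median-of-ratios scaling (adjusted p = 0.493). tRF-Gly-GCC-015 (0.55, adjusted p = 0.327) and tRF-Gly-GCC-023 (0.52, 0.35) did not pass limma either, nor did tiRNA-Gly-GCC-002 (0.55, 0.347).

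Abundant tsRNAs that rose by deposited CPM mostly lost the call with median-of-ratios scaling. One of them, tRF-Gly-GCC-027, was at 13841, 9611, 11406, 13667 and 19116 CPM in controls and 60793, 39017, 46711, 21728 and 19383 CPM in the restricted group. All restricted values were higher, but the lowest was only just above the highest control. Its log2 fold change was 1.38 (limma adjusted p = 0.0194) and turned to -0.25 when rescaled (adjusted p = 0.806). Its relative tRF-Gly-GCC-025 rose from 8312 ± 4324 to 36368 ± 14898 CPM (2.18; 0.56 and adjusted p = 0.532 with that scaling). The same loss of call was seen for tRF-Gly-GCC-016 (1.81), tRF-Gly-GCC-014 (1.98), tRF-Arg-ACG-017 (2.01), tRF-Glu-CTC-021 (2.14), tRF-Val-CAC-028 (1.93) and tRF-Lys-CTT-023 (1.82).

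The abundant histidine fragment tRF-His-GTG-014 was at 937, 868, 920.2, 298 and 904 CPM in controls and 4908, 3119, 4377, 5334 and 5095 CPM in restricted libraries. The groups were apart by deposited CPM (2.63, limma adjusted p = 4.79e-05), and the rescaled value did not pass (1.00, adjusted p = 0.0889). Among the 10 most abundant rises, tRF-Ala-TGC-028 kept its call with that scaling (1.10, adjusted p = 0.0204). The 10 most abundant falls (tiRNA-Ser-GCT-001 and the Trp-TCA, Gln-TTG, Pro-TGG and Ser-GCT tRFs given above) were also called lower with that scaling, which takes a typical rise as no change and so favours falls.

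Several parents were led by a different fragment in each group. The leading fragment differed in 19 of the 40 isoacceptors, and in 5 of these the share of the parent's reads did not overlap between groups for either fragment. A share within a parent does not depend on the library total or the scaling. In Asn-GTT, tRF-Asn-GTT-043 held 67.7, 74.3, 65.3, 74.9 and 66.7% of the parent's reads in controls and 8.96, 30.3, 3.81, 18.8 and 20.1% in restricted libraries. tRF-Asn-GTT-021 held 2.07, 1.04, 5.78, 0.396 and 4.08% and 54.05, 46.3, 73.5, 55.5 and 52.5%. The former fell from 1296 ± 209 to 254 ± 104 CPM (-2.45, limma adjusted p = 0.000478), while the latter rose from 47.7 ± 38.9 to 1112 ± 634 CPM (4.82, adjusted p = 8.68e-09), and the parent's summed level was 1849.5 CPM in control and 1879.6 CPM in restricted libraries.

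In Cys-GCA the share of tRF-Cys-GCA-051 went from 37.5% ± 4.47 to 7.19% ± 3.33 and that of tRF-Cys-GCA-029 from 20.7% ± 7.06 to 46.1% ± 6.16. In Thr-TGT, tRF-Thr-TGT-034 went from 30.6% ± 15.8 to 2.04% ± 2.98 and tRF-Thr-TGT-024 from 21.7% ± 8.70 to 44.9% ± 3.06. Gln-TTG and Ile-GAT passed from a tRF to a tiRNA. tRF-Gln-TTG-054 went from 29.8% ± 7.18 to 7.91% ± 6.37 and tiRNA-Gln-TTG-003 from 10.1% ± 4.65 to 26.8% ± 7.72. tRF-Ile-GAT-003 went from 62.6% ± 11.3 to 16.1% ± 5.49 and tiRNA-Ile-GAT-001 from 19.2% ± 9.33 to 36.1% ± 3.38. Ile-GAT summed to only 61.5 to 177 CPM in restricted libraries, where 1 read was worth 2.52 to 6.10 CPM, so its shares there rest on few reads. The level of neither tiRNA (tiRNA-Gln-TTG-003 and tiRNA-Ile-GAT-001) was called (log2 fold changes of 0.97 and -0.62, limma adjusted p = 0.156 and 0.4). These 5 parents are all mitochondrial-type, were chosen after their values were seen, and their shares are a description with no test.

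**Figure D4:**
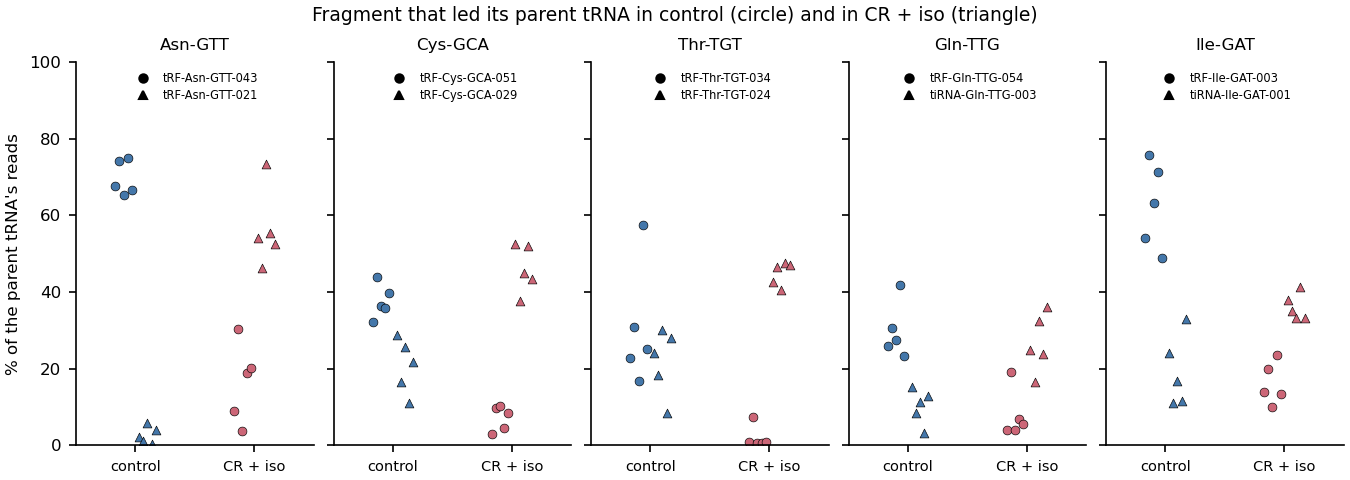
Share of the parent's reads (%, vertical axis) held by the fragment that led in control (circles) and by the one that led in CR + iso (triangles), in each library of both groups, for 5 isoacceptors. In each panel the circles drop and the triangles climb from control to CR + iso, with no overlap between groups for either fragment. In Asn-GTT the means go from 69.8% to 16.4% and from 2.67% to 56.4%.

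Of the 49 tiRNAs, 6 rose and 3 fell, with a median of 0.68, and of the 658 tRFs tested 331 rose and 73 fell, with a median of 1.70. With median-of-ratios scaling 0 tiRNAs rose and 14 fell. The class was led by tiRNA-Ser-GCT-001 and tiRNA-Val-TAC-001 (5.62 ± 9.39 to 24.7 ± 6.51 CPM, 3.03). The abundant tiRNA-Lys-CTT-002 was at 4374 ± 395 and 2598 ± 865 CPM, which did not pass (-0.81, limma adjusted p = 0.149) but was called lower with that scaling (-2.43, adjusted p = 0.00217).

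As shares of the listed reads, 7 of the 11 groups tested differed between restricted and control libraries. tiRNAs held 9.89, 14.2, 12.4, 26.1 and 9.63% in controls and 8.74, 2.88, 5.24, 2.58 and 4.78% in the restricted group. The restricted libraries were all lower (exact permutation test, adjusted p = 0.0218), at 4.84% ± 2.47 against 14.4% ± 6.80. The difference was -9.61 points, and -6.69 points without control replicate 4 (exact permutation test, adjusted p = 0.0437). Without tiRNA-Ser-GCT-001, chosen after the values were seen, the tiRNA share was 5.68% ± 0.821 and 4.25% ± 2.46 and did not pass (exact permutation test, adjusted p = 0.291).

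Serine, tryptophan and proline shares fell, each with no overlap. Serine went from 11.8% ± 7.47 to 1.65% ± 0.584, tryptophan from 5.54% ± 1.57 to 0.836% ± 0.255 and proline from 2.15% ± 0.616 to 0.579% ± 0.295 (exact permutation test, adjusted p = 0.0218 each). Without control replicate 4 the serine difference was -6.87 points in place of -10.1 (exact permutation test, adjusted p = 0.0291). The serine share without tiRNA-Ser-GCT-001 still differed, at 2.78% ± 1.18 and 1.04% ± 0.405 (exact permutation test, adjusted p = 0.0291). Glutamine passed narrowly, from 4.70% ± 1.12 to 2.48% ± 1.20, with overlapping groups (adjusted p = 0.0499, exact permutation test), and it did not pass in 7 of the 10 repeats that left out 1 library. Alanine rose from 0.884% ± 0.309 to 2.54% ± 1.30 and valine from 1.52% ± 0.441 to 2.65% ± 0.546 (exact permutation test, adjusted p = 0.0291 each). The alanine share did not pass without control replicate 1, 2 or 4 (differences of 1.66, 1.67 and 1.53 points against 1.65), nor the valine share without control replicate 2 or 4 (1.11 and 0.949 points against 1.13). Glycine (60.01% ± 6.96 and 70.2% ± 10.97, adjusted p = 0.148), glutamate (0.262), lysine (0.0546) and arginine (0.0873) did not pass the exact permutation test. Lysine passed without restricted replicate 3 (-1.15 points against -0.879, adjusted p = 0.0291), and arginine without restricted replicate 2 (2.43 points against 1.93, adjusted p = 0.0349, exact permutation test).

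**Figure D5:**
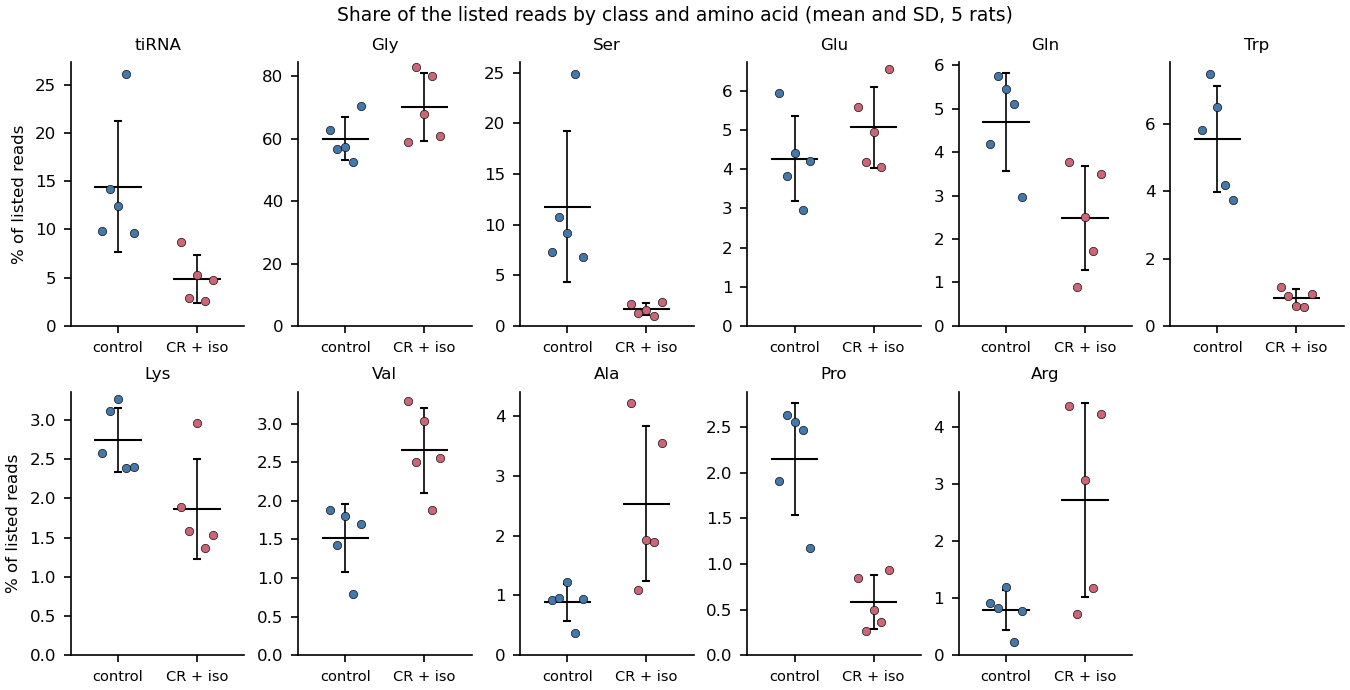
Share of the listed reads (%, vertical axis) of the tiRNA class and of the 10 amino acids with most reads, in the 5 control and 5 restricted plus isoproterenol (CR + iso) libraries. Points are rats, and bars give the mean and SD. Serine goes from 11.8% to 1.65% and tryptophan from 5.54% to 0.836%, while alanine goes from 0.884% to 2.54%.

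Listed tsRNAs took 24.2% to 35.7% of the library total in controls and 37.0% to 67.3% in restricted libraries (exact permutation test, adjusted p = 0.0238). This share is the sum of the same CPM values, so it restates the rises above. It did not pass when any 1 control was left out (exact permutation test, adjusted p from 0.0714 to 0.0952). A median tsRNA had 4.9 ± 0.224 reads in controls and 7.2 ± 0.837 in restricted libraries, and the part of this in the rises was not tested. For the concentration of reads no difference passed the test: the most abundant tsRNA held 37.0% ± 6.58 of the listed reads in controls and 38.3% ± 16.5 in the restricted group (exact permutation test, adjusted p = 0.889). With the log2 library total as a covariate in limma, 261 tsRNAs rose and 77 fell, 74 of the latter mitochondrial-type.

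Isoproterenol without restriction was set beside the restricted group. Both are compared with the same 5 controls, so their values are given side by side only. The limma calls against control were 251 higher (35.5%) and 88 lower (12.4%) for isoproterenol alone, 47.9% in all, beside 337 and 76 for the restricted group. tRF-His-GTG-043 was at 611 ± 466 CPM with isoproterenol alone and 503 ± 316 CPM in the restricted group. tRF-Trp-TCA-001 was at 450.2 ± 292 and 552 ± 294 CPM, and tiRNA-Ser-GCT-001 at 1399 ± 835 and 2929.6 ± 1569 CPM. Of the 88 falls for isoproterenol alone, 83 were mitochondrial-type, beside 74 of 76 for the restricted group. The leading fragment of Asn-GTT also differed from control with isoproterenol alone. There tRF-Asn-GTT-043 held 7.46% ± 7.92 and tRF-Asn-GTT-021 68.9% ± 16.6 of the parent's reads. Parents singled out after their counts were seen were Leu-TAG, with 1 member called higher for isoproterenol alone and 8 for the restricted group, Ala-AGC (9 and 18), Gly-GCC (18 and 26) and Ser-AGA (6 and 12). Others were level or went the other way, such as Arg-ACG (10 and 10), Glu-TTC (17 and 16), Lys-CTT (8 and 7), Met-CAT (6 and 5) and Gln-TTG (9 and 7).

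The difference between these groups was tested directly, so that the control means cancel. The control libraries still entered the filter and the estimate of spread in the models of single tsRNAs. By limma 0 of 707 tsRNAs passed (0%), with a smallest adjusted p of 0.204, and 116 had an unadjusted p under 0.05. edgeR on the recovered reads called 1 with the authors' totals (0.288% of 347, tRF-His-GTG-017, lower in the restricted group) and 0 with TMM factors. DESeq2 called 34 of 714, 6 higher and 28 lower in the restricted group. For tRF-Leu-TAG-003, at 984 ± 603 CPM with isoproterenol alone and 2171 ± 691 CPM in the restricted group, the log2 difference was 1.28 (limma adjusted p = 0.243). For tRF-Leu-TAG-014 it was 1.72 (0.204). No share of the listed reads passed between these groups (exact permutation test, smallest adjusted p = 0.349). A p that misses the threshold does not show that the groups are alike.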

How the data were processed

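Total RNA of left ventricles was pretreated with a kit that removes base modifications, and gel-cut inserts were 14 to 40 nt long, per the labels' protocols. Per the submitters' processing notes, cutadapt and edgeR were used, with no version or role named. Aligner, tRNA reference and build were not given in the sources used here. CPM values were deposited by the authors for 714 tsRNAs in 15 libraries of 3 groups, which were whole multiples of 1 read in 100% of 9419 values above 0, within 0.001 reads. Library totals recovered from these multiples were 106082 to 1128887. The remainder of a total, and any limit or collapse of reads before counting, is unstated. Amplified reads are not independent molecules, so intervals and floors cover counting error only. They pool the reads of a group, so deep libraries weigh most, above all control replicate 4.

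The members and lists were chosen with earlier results of these data known. The test was limma (eBayes with trend, two-sided) on log2(CPM + 1), over tsRNAs that reached 1 CPM in 5 or more libraries. All 15 libraries entered 1 model of 3 groups, with Benjamini-Hochberg adjustment and a threshold of 0.05. Fold changes are on that scale, where low values count for less. Shares of listed reads (11) and library measures (6) were tested by a two-sided exact permutation test (5 against 5, 252 splits, 0.00794 at the least) with Benjamini-Hochberg adjustment. Libraries of a group differed by more than sampling noise (chi-square per degree of freedom 7.52 or more), and each library is a separate rat per the labels.

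Named tsRNAs are the 10 largest rises and falls, the 10 most abundant rises and falls, the 10 most abundant of all, and the 2 members with the smallest p of each parent described. Mitochondrial-type parents are those with the amino acid and anticodon of a mammalian mitochondrial tRNA. Alternatives changed the scaling, pseudocount (0.5 or 5), filter, samples, library-total covariate, replicate block and tool (edgeR and DESeq2 on the recovered reads), and the test was tried on simulated data. Software was R 4.3.3 with DESeq2 1.42.0, edgeR 4.0.16 and limma 3.58.1.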

Additional observations from a re-analysis of the deposited data

Results flagged for a closer look

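In each group of 5 rats, the highest and lowest values of the named tsRNAs, shares and library measures were checked for a value far from its neighbours. A chance rate of 5% cannot be set against the count of such values. Some of them share reads, and a group with reads in only 1 library is always flagged. Of 122 groups of values checked, 17 held one. In control replicate 4 these were the library total (1128887 reads), the tiRNA share (26.1%), the serine share (24.9%), tiRNA-Ser-GCT-001 (53100 CPM), tRF-Ser-GCT-035 (4258 CPM) and tRF-Ser-GCT-034 (2948 CPM), all highest, and tRF-His-GTG-014 (297.6 CPM), lowest. The same library held the only control read of tRF-His-GTG-041 (0.886 CPM). Control replicate 5 was highest for tRF-Gly-TCC-049 and tRF-Gln-TTG-034 (2.62 CPM each, the only control reads of both) and for tRF-Gly-GCC-041 (7.86 CPM). Control replicate 3 was lowest for tRF-Ser-GCT-049 (33.4 CPM). In the restricted group the highest values were those of replicate 1 for tRF-Ser-GCT-049 (6.10 CPM), replicate 2 for tRF-Glu-CTC-021 (9920.2 CPM), replicate 3 for tRF-Gln-TTG-034 (167 CPM), replicate 4 for tRF-Ser-GCT-048 (3.62 CPM) and replicate 5 for tRF-Gly-GCC-023 (9300.1 CPM).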

How the results depend on the processing

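Counts of calls against control moved most where the scaling changed, as it also does in DESeq2 and TMM. No setting changed the tool alone, since edgeR also has its own filter. Median-of-ratios scaling gave 107 higher and 146 lower (253), DESeq2 108 and 161 (269), edgeR with TMM factors 77 and 88 (165), edgeR with the authors' totals 212 and 49 (261, from 347 tested), and listed-total scaling 187 higher. Against isoproterenol alone, where limma called 0, edgeR with the authors' totals called 1 and pseudocount 5 gave 1. DESeq2 called 34 (6 higher and 28 lower) and the library-total covariate 43 (37 higher and 6 lower), so the balance went opposite ways. In all 23 settings 72 rises and 40 falls were called, 43 and 40 of them mitochondrial-type. Leaving out 1 library at a time gave 351 to 436 calls, 282 to 359 higher and 62 to 77 lower. Against isoproterenol alone, leaving out any 1 of the 15 libraries gave 0 calls by limma. Of 108 named tsRNAs, 71 kept direction and call in every setting that gave them a value, 60 of them among the 88 with a value in every setting (edgeR tested 88 of the 108 and the filter at 20 CPM 92), and 7 reversed. By DESeq2, TMM and median-of-ratios, tRF-Gly-GCC-027 was at -0.43, -0.43 and -0.25. By DESeq2, TMM, listed-total and median-of-ratios, tRF-Gly-GCC-026 was at -0.49, -0.53, -0.045 and -0.88, tRF-Gly-GCC-015 at -1.18, -1.21, -0.24 and -1.07, tRF-Gly-GCC-023 at -1.27, -1.33, -0.28 and -1.11, and tiRNA-Gly-GCC-002 at -1.44, -1.44, -0.24 and -1.08. By DESeq2 and TMM, tRF-Gly-GCC-016 was at -0.27 and -0.25 and tRF-Glu-CTC-022 at -0.28 and -0.31. The cause was not tested.

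Of the shares (differences in points), the tiRNA share was at -1.43 without tiRNA-Ser-GCT-001 and no longer passed. Without the most abundant tsRNA of the table, glycine (15.9), lysine (-1.29) and arginine (2.76) passed. As shares of the authors' total, glycine (19.1), glutamate (1.21) and arginine (0.959) passed, glutamine (-0.18) did not, and lysine turned to 0.145. Leaving out 1 library gave -2.65 to -1.82 for glutamine, -1.15 to -0.75 for lysine, 0.949 to 1.32 for valine, 1.23 to 2.01 for alanine, 1.51 to 2.43 for arginine, 17.6 to 25.2 for the listed share of the total, -3.23 to 6.04 for the top tsRNA, -4.77 to 1.55 for the top 10 and -0.185 to 0.428 bits for entropy.

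Same-numbered control and restricted libraries did not deviate together (r from -0.0915 to 0.0782, with 1 of 5 control and 0 of 5 restricted libraries correlating best with its own number). The values thus show no pairing by number, but they cannot settle whether libraries of equal number were handled together. A replicate block gave 343 higher and 78 lower. For shares and measures its sign-flip test cannot go below 0.0625, so tiRNA (-9.61), serine (-10.1), glutamine (-2.22), tryptophan (-4.70), valine (1.13), alanine (1.65), proline (-1.57), the listed share (21.8) and detected tsRNAs (47.4) could not pass the block. With 4.9 to 7.2 reads at the median tsRNA of a library, rare tsRNAs rest on few reads, and detection by level was not tested.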

Other observations

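Some tsRNAs had reads in the restricted group and none in any control. There were 13 of these, 8 of them called higher by limma, and 2 tsRNAs had reads in control and none in the restricted group. A read was present in every restricted library for 6 of the 13. Beside tRF-Asn-GTT-022, tRF-Ala-AGC-005 and tRF-Gly-GCC-005, these were tRF-Gly-TCC-050 (40.3 ± 45.9 CPM, at least 30.3-fold higher), tRF-His-GTG-037 (26.6 ± 17.1 CPM, at least 19.97-fold higher) and tRF-Asp-GTC-041 (21.99 ± 20.01 CPM, at least 15.5-fold higher), the last pair named after their values were seen. With isoproterenol alone their means were 42.9 ± 29.5, 31.8 ± 24.5 and 9.94 ± 9.18 CPM.

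The rises called in all 23 settings came from 27 parents, with 10 from His-GTG, 5 from Ala-AGC and 4 each from Gly-TCC, Arg-TCG and Ala-TGC. The falls called in all of them came from 13 parents, with 7 from Gln-TTG, 6 each from Trp-TCA and Pro-TGG, 5 from Leu-TAA and 4 from Ser-GCT. Calls against isoproterenol alone with the library total as a covariate, 37 higher and 6 lower, were led by tRF-Leu-TAG-003, tRF-Thr-TGT-004, tiRNA-Tyr-GTA-003, tRF-Ala-AGC-027 and tRF-Leu-TAG-014. Their means in the restricted group were 2171 ± 691, 473 ± 187, 54.5 ± 38.4, 76.2 ± 26.8 and 366 ± 115 CPM. With isoproterenol alone they were 984 ± 603, 243 ± 169.5, 19.4 ± 25.2, 12.2 ± 3.21 and 144 ± 122 CPM. All 5 had limma adjusted p of 0.204 or more without the covariate.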
